A study of Mus musculus with 4 samples.

Results

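The miRNAs described here were chosen by name as markers of the blood vessels and the blood that lie within skin. They were mmu-miR-126-3p and mmu-miR-126-5p for endothelium, and mmu-miR-451, mmu-miR-144 and mmu-miR-486 for red blood cells. All 5 were found by these names among the 710 mature mouse miRNAs (without the species prefix below), each with 8 spots on every array. The samples were abdominal skin of female C57BL/6JNarl mice aged 6 to 8 weeks, taken 24 hr after topical treatment. Shikonin-treated skin (2 arrays) had received 100 μl of acetone with 10 μg/μl shikonin, a red naphthoquinone from the root of the herb Lithospermum erythrorhizon. Acetone-treated skin (2 arrays) had received the solvent alone, which both groups therefore shared. The study calls the samples of a group biological replicates, but does not say whether each array held a different mouse, and p-values reflect only how far these samples varied.

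miR-126 is made from 1 hairpin in the gene of Egfl7, a factor secreted by endothelial cells, and is abundant in endothelium of every tissue. Its 3p arm represses Spred1 and Pik3r2, inhibitors of the signalling of vascular endothelial growth factor, and its 5p arm represses Dlk1 in endothelial cells of mice. miR-451 and miR-144 come from 1 primary transcript that the factor Gata1 activates in erythroid cells, and mature red blood cells, although they have no nucleus, retain both. miR-486 lies in the gene of ankyrin 1, a protein of the red blood cell membrane, and is made in striated muscle too.

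The mature sequences of the 3 markers found in the RefSeq table (build GRCm38.p6) are given below, since each probe of the chip is the reverse complement of its miRNA. Capitals mark the seed, bases 2 to 8, which pairs with target mRNAs. miR-144 is listed on the chip without an arm, a name that denotes the 3p arm.
miR-126-3p (RefSeq miR-126a-3p, chr2:26591402-26591423, plus strand): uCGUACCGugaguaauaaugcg
miR-451 (RefSeq miR-451a, chr11:78073186-78073207, plus strand): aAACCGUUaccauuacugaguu
miR-144 (RefSeq miR-144-3p, chr11:78073047-78073066, plus strand): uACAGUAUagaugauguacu
The 3 seeds differ from each other, and 0 of the other mature mouse miRNAs in the table have any of them. The hairpins of the best measured marker of each kind show where the mature miRNA lies in its precursor, here in capitals.
Mir126a (chr2:26591357-26591429, plus strand): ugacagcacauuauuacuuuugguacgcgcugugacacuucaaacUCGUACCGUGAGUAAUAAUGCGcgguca
Mir451a (chr11:78073170-78073241, plus strand): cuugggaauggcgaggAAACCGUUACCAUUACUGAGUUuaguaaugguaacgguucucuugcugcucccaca
In Mir126a, which lies within Egfl7, miR-126-3p takes up positions 46 to 67 of 73, on the 3′ side. In Mir451a it is positions 17 to 38 of 72 that form the mature miRNA, on the 5′ side and running into the loop, a form that Argonaute 2 cuts without Dicer. The hairpins of Mir144 and Mir451a lie on the same strand with 99 bases between them, and Mir486 lies within Ank1.

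The median of 40 miRNAs of brain, liver, pancreas, stem cells and testis served as the background level, at 332 and 416 on the shikonin arrays and 304 and 368 on the acetone arrays. A miRNA was taken as above background where its median spot exceeded this level by over 3 scaled median absolute deviations. By that measure 215 and 239 miRNAs were above background on the shikonin arrays and 230 and 257 on the acetone arrays, 164 of them on all 4. With 2 arrays a group, precision was low throughout.

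Vessel and blood markers differed in how well they could be read. miR-126-3p stood far above background on all 4 arrays and was lower on both shikonin arrays. miR-451 was dim, miR-486 and miR-144 were at or near background, and miR-126-5p was not above it on any array.

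The median raw intensity of miR-126-3p was 1180 and 1312 on the shikonin arrays, against 4409 and 3641 on the acetone arrays. The spots ranged from 416 to 1736 and from 1104 to 1760 on the shikonin arrays, and from 2169 to 8594 and from 1929 to 6810 on the acetone arrays. All 16 shikonin spots thus lay below all 16 acetone spots, which fixes the same order at each of the 8 places of the table. The 8 spots of an array measure the same sample and are not replicates. Among the 710 miRNAs every shikonin spot lay below every acetone spot for 1.69%, and among the 164 above background on all 4 arrays for 6.71%. Over the background level the intensity was 848 and 896 on the shikonin arrays and 4105 and 3273 on the acetone arrays.

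**Figure D1:**
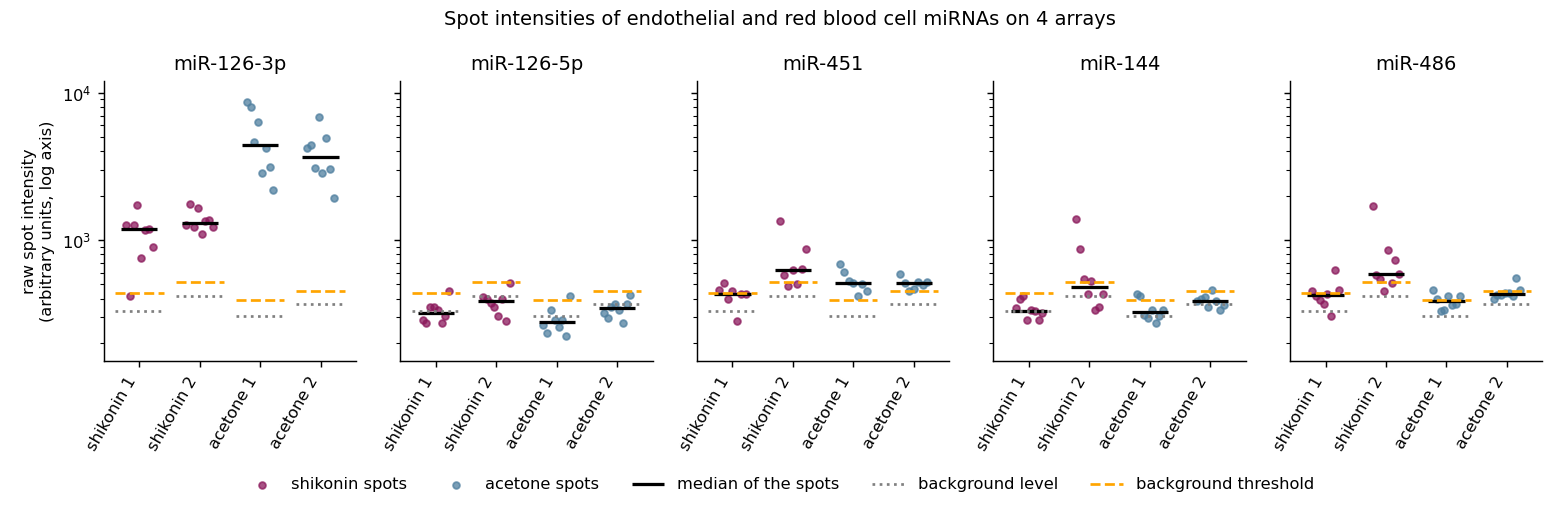
Raw spot intensities (vertical log axis, arbitrary units) of the 5 miRNAs on the 2 shikonin and 2 acetone arrays, with the median of the spots, the background level and the background threshold of each array. The miR-126-3p medians sit at 1180 and 1312 on the shikonin arrays and at 4409 and 3641 on the acetone arrays, while the other 4 miRNAs lie near the background lines.

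After quantile normalization the log2 intensity of miR-126-3p was 10.52 on both shikonin arrays, against 12.01 and 11.37 on the acetone arrays. The groups did not overlap. An equal value on the shikonin arrays arises because the miRNA had the same rank on both, so the SD of 0 there says nothing about biological spread. The mean was 10.52 in shikonin-treated and 11.69 ± 0.45 in acetone-treated skin (SD, n = 2 each), a log2 fold change of -1.17 (SE 0.24), or 2.25-fold lower. The unadjusted limma p was 0.00853 and the adjusted p over all 710 miRNAs was 0.146, so miR-126-3p did not pass the threshold of 0.05. In the same fit 0.282% of the miRNAs passed with a higher level and 0% with a lower one (2 and 0 of 710), and 11% were lower at an unadjusted p under 0.05. When arrays were scaled to their 75th percentile instead, 0 miRNAs passed as higher and 2 as lower.

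Of the 164 miRNAs above background on all 4 arrays, miR-126-3p among them, 89 were lower and 75 higher. The split was similar for all 710 miRNAs, of which 343 were higher and the rest lower. The log2 fold change of miR-126-3p was at rank 15 of 710 from the lowest, and at rank 14 of the 164. Of these 164, 16.5% were at least 2-fold lower in shikonin-treated skin and 44.5% were lower with no overlap between the groups, against 26.8% of all 710. Their median log2 fold change was -0.13, and that of all miRNAs was -0.0059. In bulk skin, fewer endothelial cells and less miR-126-3p per cell cannot be told apart. Neither can be told from the lower values found for a part of the bright miRNAs. The median log2 fold change was -1.05 for keratinocyte, -1.17 for fibroblast and -0.28 for leukocyte miRNAs, as described below. The study reports thicker epidermis and infiltrating cells in shikonin-treated abdominal skin, and a changed mix of cells was not tested.

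The size of the difference depended most on the normalization and on single arrays, and its sign was the same in each alternative run. The log2 fold change was -2.16 in the authors' value table, -1.76 with arrays scaled to their 75th percentile, -1.69 without normalization and -0.83 with cyclic loess. With normexp background correction, which removes the part of a spot that is background, miR-126-3p was 2.44-fold lower (adjusted p = 0.0871). Without acetone replicate 1, its brightest array, the log2 fold change was -0.77, and without acetone replicate 2 it was -1.51. With 54 miRNAs of 4 repeat-rich families (miR-669, miR-467, miR-466 and miR-297) left out before normalization it was -0.74.

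**Figure D2:**
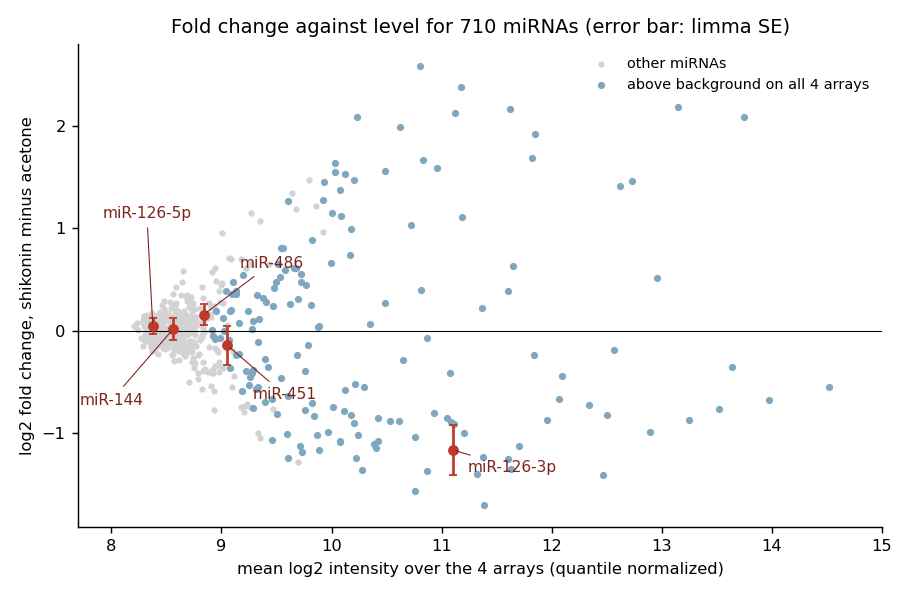
Log2 fold change (shikonin minus acetone, vertical axis) against the mean log2 intensity over the 4 arrays (horizontal axis) for 710 miRNAs, with the 5 vessel and blood markers in red and their limma SE as error bars. miR-126-3p lies at -1.17 among bright miRNAs, and the other 4 markers lie close to 0 at the dim end. miR-126-5p and miR-144 were not above background on any array, so their place near 0 is no measured fold change.

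The other arm of the same hairpin could not be read. miR-126-5p had median raw intensities of 320 and 388 on the shikonin arrays and 276 and 344 on the acetone arrays, each below the background level of its array. Its ratio to that level was 0.964 and 0.933 on the shikonin arrays and 0.908 and 0.935 on the acetone arrays. Normalized log2 values were 8.41 and 8.39 on the shikonin arrays and 8.34 and 8.37 on the acetone arrays, with no overlap, as for the 22.4% of all miRNAs that were higher in this way. No fold change is given for it, as both groups were below background.

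The arms were also compared within each array, where a shift common to both probes of an array drops out. The log2 difference of miR-126-3p minus miR-126-5p was 2.11 and 2.13 on the shikonin arrays, against 3.67 and 3.0 on the acetone arrays. It was 1.22 log2 units smaller in shikonin-treated skin, at 2.12 ± 0.015 in shikonin-treated and 3.33 ± 0.48 in acetone-treated skin (SD, n = 2 each). The groups did not overlap, and a two-sided exact permutation test gave p = 0.33, the smallest that 2 against 2 arrays allow. Shikonin minus acetone, this difference was below 0 in 14 of 14 alternatives, but its size moved. It was -1.88 without normalization and with both scalings to a percentile, which cancel within an array and so give the same value. It was -2.77 in the authors' value table, -0.88 with cyclic loess, -0.79 without the repeat-rich families and -0.80 without acetone replicate 1. Because miR-126-5p was not above background on any array, this difference sets the 3p signal against a probe at background, and the ratio of the arms in skin was not measured.

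Among the red blood cell markers, miR-451 was above background on the most arrays, 3 of 4. In each array 1 of its 8 spots was empty, at the same place of the table. The medians of the other 7 were 432 and 624 on the shikonin arrays and 512 and 512 on the acetone arrays. The ratio to the background level was 1.30 and 1.5 on the shikonin arrays and 1.68 and 1.39 on the acetone arrays. It was above background on both acetone arrays but on only 1 of the shikonin arrays. The raw groups overlapped, with the shikonin arrays lying on either side of the acetone arrays.

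The log2 intensity of miR-451 after normalization was 8.85 and 9.11 on the shikonin arrays and 9.33 and 8.92 on the acetone arrays. The log2 fold change was -0.14 (SE 0.19, limma adjusted p = 0.774). Its sign turned in 3 of the settings tried, with 0.020 without normalization, 0.59 with scaling over the 164 bright miRNAs and 0.064 without acetone replicate 1. Without normalization and with that scaling the median of all miRNAs was 0.14 and 0.71, so miR-451 lay below it in both.

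miR-144, which shares the primary transcript of miR-451, was not above background on any array. Its median raw intensity was 332 and 480 on the shikonin arrays and 324 and 384 on the acetone arrays. Over the background level this was 0 and 64 on the shikonin arrays and 20 and 16 on the acetone arrays, so no fold change is given.

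miR-486 had median raw intensities of 424 and 584 on the shikonin arrays and 384 and 432 on the acetone arrays. It was above background on shikonin replicate 2 alone. Normalized log2 values were 8.83 and 9.0 on the shikonin arrays and 8.81 and 8.71 on the acetone arrays, higher in shikonin-treated skin with no overlap, again beside 22.4% of all miRNAs. The fitted log2 fold change was 0.16 (SE 0.11, limma adjusted p = 0.551), and 0.074 without shikonin replicate 2. With 1 of 4 arrays above background it is no measured change. Striated muscle makes miR-486 as well, and of 7 muscle miRNAs 5 were lower and 2 higher, with a median log2 fold change of -0.78. miR-1, miR-206 and miR-133a, the brightest of these, had log2 fold changes of -1.38, -0.81 and -0.78 (adjusted p from 0.264 to 0.426). The part of muscle in the miR-486 signal was not tested.

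Means over the markers of a kind were also taken, but mix probes above and below background and are given as a description only. The mean log2 intensity of the 2 endothelial miRNAs was 9.46 and 9.45 on the shikonin arrays and 10.17 and 9.87 on the acetone arrays, a difference of -0.56. That of the 3 red blood cell miRNAs was 8.72 and 8.93 on the shikonin arrays and 8.90 and 8.73 on the acetone arrays, a difference of 0.0094. The first joins miR-126-3p with miR-126-5p, which was not measured, so it adds nothing to the value of miR-126-3p, and the second rests on probes at or near background. A difference in blood content was thus not detectable at these intensities, and an equal content is not shown.

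The spots of a miRNA were spread over the rows of the deposited table, and on shikonin replicate 2 the intensity differed along those rows. There the median of all spots in the first eighth of the rows was 972, and over the other eighths it ranged from 408 to 552. The first eighth had medians of 424 on shikonin replicate 1 and 416 on both acetone arrays. The brightest spots of miR-451, miR-144 and miR-486 on shikonin replicate 2, at 1344, 1384 and 1704.5, all lay in that first eighth, which held 1, 2 and 1 of their spots. miR-126-5p had 0 spots there and miR-126-3p had 1. On acetone replicate 1 the 4 miR-126-3p spots earliest in the table had the higher values, from 4609 to 8594, and the later 4 ranged from 2169 to 4209. What set these patterns was not tested.

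**Figure D3:**
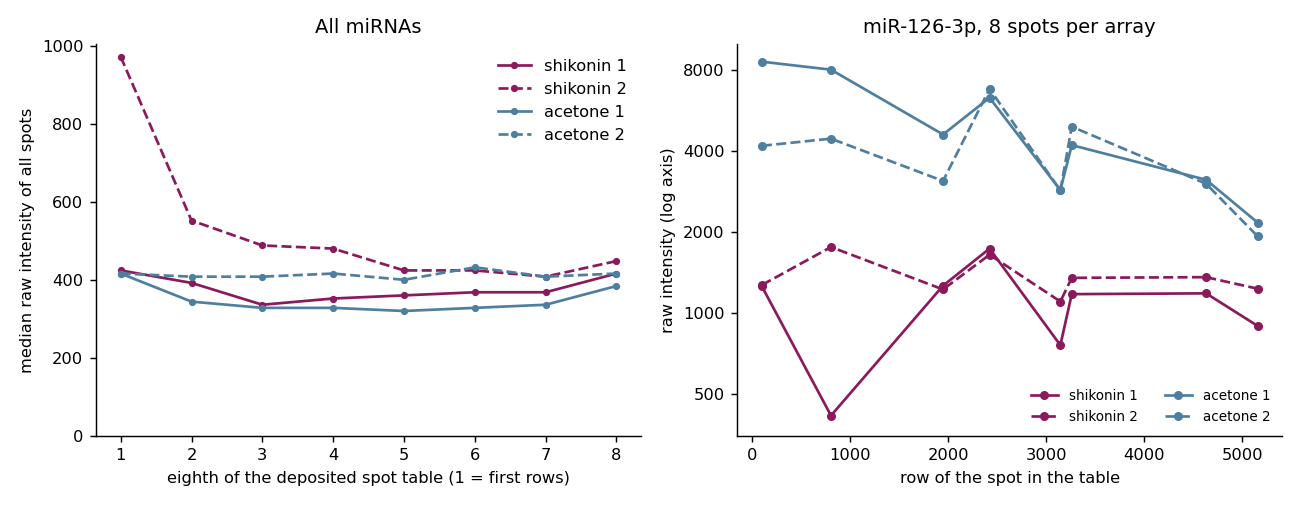
Left, median raw intensity of all spots in each eighth of the deposited spot table for the 4 arrays, where shikonin replicate 2 reaches 972 in the first eighth. Right, raw intensity (log axis) of the 8 miR-126-3p spots against their row in the table, with the shikonin spots below the acetone spots at each of the 8 places.

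With the first eighth left out, a setting chosen after the values had been seen, the log2 fold change was -1.0 for miR-126-3p, -0.13 for miR-451 and 0.18 for miR-486. With the running median over rows divided out, also chosen afterwards, it was -1.11, -0.24 and 0.17. The signs of all 3 were as before in both settings.

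**Figure D4:**
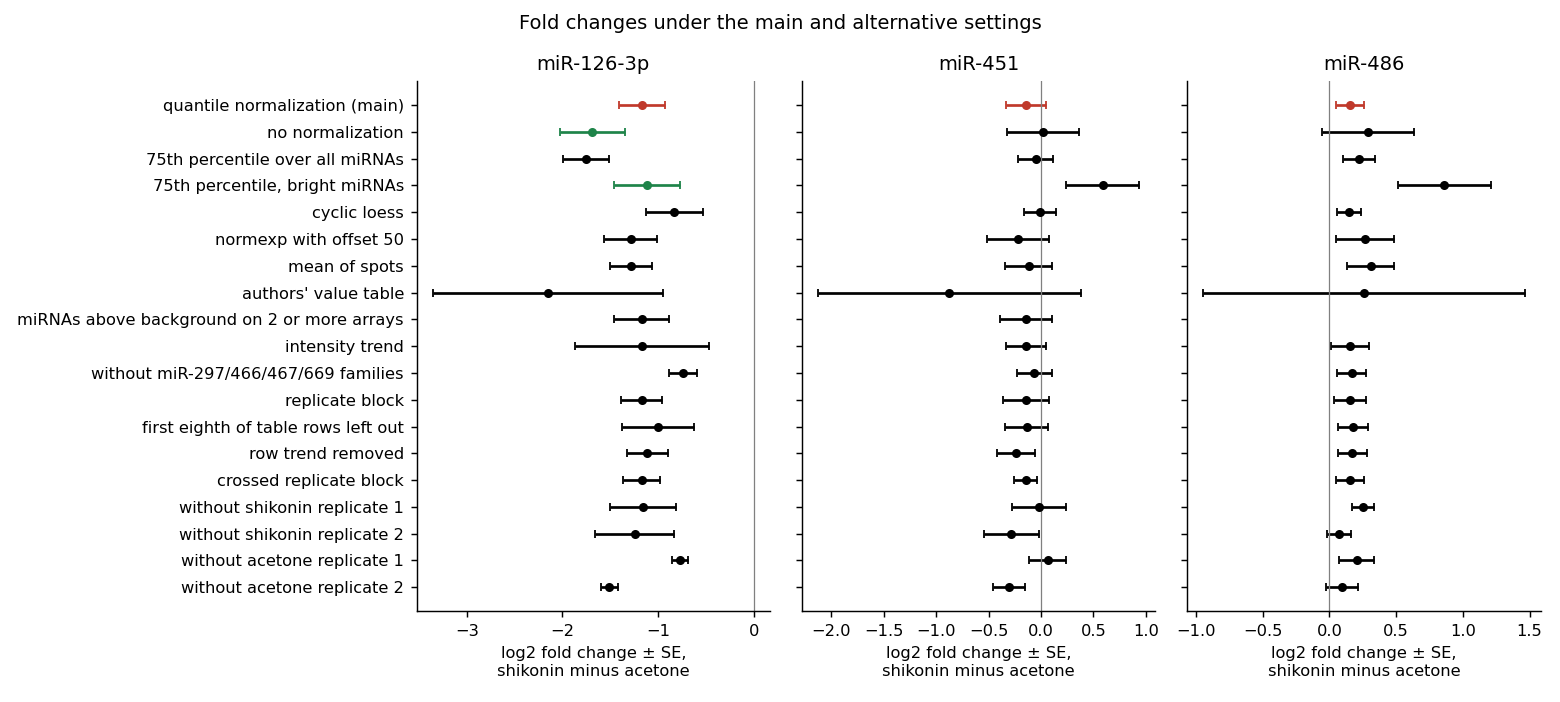
Log2 fold changes (shikonin minus acetone, horizontal axes) with limma SE of miR-126-3p, miR-451 and miR-486 under the main setting (red) and each alternative, green where the adjusted p was under 0.05. miR-126-3p lies between -2.16 and -0.74 in all of 18 alternatives, miR-451 lies on both sides of 0, and miR-486 has no value where only miRNAs above background on at least 2 arrays were tested.

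Other miRNAs known to act in endothelium or vessel growth were lower in shikonin-treated skin for the most part, but 0 of 24 passed the test in either direction. Of these 24, 22 were lower and 2 higher, 15 of the lower and 1 of the higher at an unadjusted limma p under 0.05, against 11% lower and 6.62% higher of all 710 by that measure. Of all 710, 399 were above background on no array but only 2 of the 24, so these shares are no like-for-like mark. The median log2 fold change of the 24 was -0.49. It turned to 0.18 with scaling over the 164 bright miRNAs (10 lower, 14 higher), where the median of all miRNAs was 0.71. Over the 15 above background on all 4 arrays the median was -0.89, against -0.13 for the 164 as a whole. The brightest were miR-23a (-0.88, SE 0.11), miR-23b (-0.82, SE 0.20) and miR-24 (-1.42, SE 0.25). Their adjusted p lay between 0.125 and 0.175. miR-143 and miR-145, the cluster of vascular smooth muscle, had log2 fold changes of -0.89 (SE 0.19) and -1.03 (SE 0.29), with adjusted p of 0.151 and 0.194.

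Other miRNAs abundant in red blood cells but also made in most nucleated cells were mostly lower. Of the 10, 9 were lower, 7 of them at an unadjusted limma p under 0.05 (11% of all 710), 0 passed the test, and the median was -0.61. 9 of these 10 were above background on all 4 arrays, a class in which 89 of 164 were lower and 75 higher. Of all 710, 399 were above background on no array. miR-16, the brightest, was at 12.67 and 13.61 on the shikonin arrays and 13.91 on both acetone arrays, a log2 fold change of -0.77 (SE 0.34). miR-15b was at 11.19 and 12.40 on the shikonin arrays and 11.20 and 11.62 on the acetone arrays (0.38, SE 0.46), and miR-17 had -0.89 (SE 0.28). 3 of these 10, miR-17 among them, also stand in the list of vessel growth.

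Lower values were found for miRNAs of other skin cells too. 7 of 7 keratinocyte miRNAs were lower, with a median log2 fold change of -1.05, and 4 of 5 fibroblast miRNAs, with a median of -1.17. Of 7 leukocyte miRNAs, which blood carries as well, 6 were lower and 1 higher, with a median of -0.28. This median turned to 0.33 with scaling over the 164 bright miRNAs, where that of all miRNAs was 0.71. miR-223, of neutrophils and monocytes, was at 10.40 and 11.62 on the shikonin arrays and 10.52 and 10.72 on the acetone arrays (0.40, SE 0.45). 0 members of these 3 lists passed the test, with 6 of 7 keratinocyte, 4 of 5 fibroblast and 3 of 7 leukocyte miRNAs lower at an unadjusted limma p under 0.05, against 11% of all 710. Those 710 include 399 miRNAs above background on no array. On all 4 arrays, 5 of the fibroblast, 3 of the keratinocyte and 3 of the leukocyte miRNAs were above it. The share of 11% is thus no like-for-like mark for these lists. The 40 miRNAs of other tissues had a median of 0.0058, with 20 lower and 20 higher. These 40 set the background level, and 37 of them were above background on no array. A median near 0 is thus what probes without signal give, and no measure of unchanged miRNAs.

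**Figure D5:**
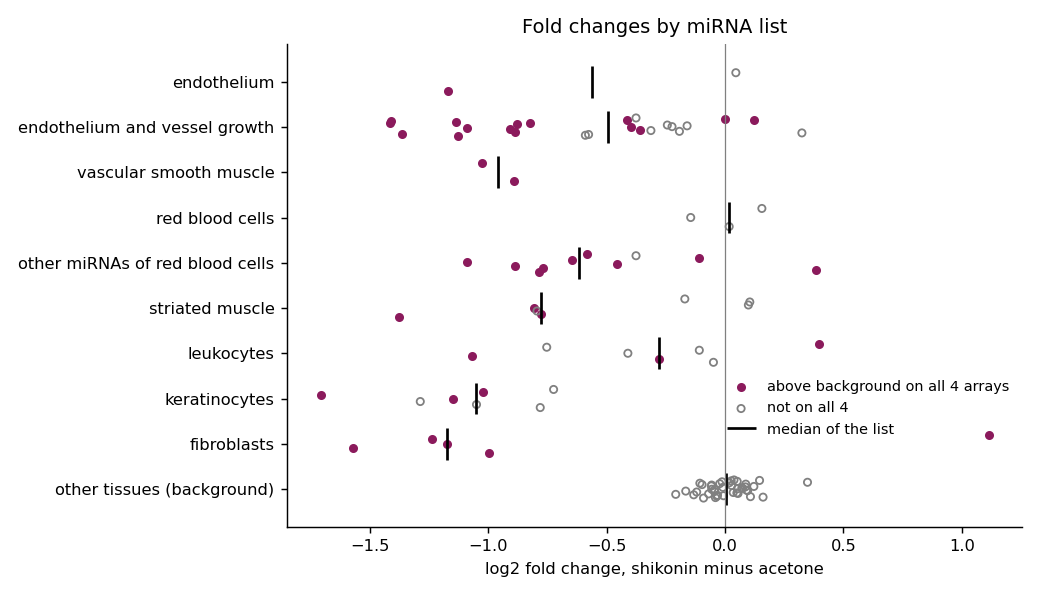
Log2 fold change (shikonin minus acetone, horizontal axis) of each miRNA by list, filled where above background on all 4 arrays and open otherwise, with the median of each list as a bar. The medians of vessel growth (-0.49), keratinocytes (-1.05) and fibroblasts (-1.17) lie below 0 in the main setting (that of vessel growth at 0.18 with scaling over the 164 bright miRNAs). That of the miRNAs of other tissues (0.0058) lies close to 0, but these set the background level, and 37 of 40 were above background on no array. The red blood cell list holds only the 3 markers at or near background.

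The miRNAs whose profile over the 4 arrays was most like that of miR-126-3p were miR-27a, miR-146a and let-7g. They were found among 163 miRNAs above background on all arrays by the root mean square difference of log2 values, each centred on its own mean, which was 0.046, 0.077 and 0.117. miR-27a was at 11.13 on both shikonin arrays and at 12.53 and 12.01 on the acetone arrays. miR-146a, an inhibitor of Toll-like receptor signalling, was at 9.0 and 8.85 on the shikonin arrays and at 10.34 and 9.65 on the acetone arrays. let-7g, of a family that restrains growth, was at 8.89 and 9.07 on the shikonin arrays and at 10.42 and 10.03 on the acetone arrays. The profile of miR-451 was most like those of miR-712*, miR-1940 and miR-1906, with differences of 0.097, 0.115 and 0.120 over 164 miRNAs. A likeness over 4 arrays is a description only.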

How the data were processed

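The members and lists were chosen with earlier results of these data known. RNA was hybridized to a febit Geniom biochip (probes after miRBase 14.0), on which a bound miRNA primes an extension with biotinylated nucleotides. The deposited spot intensity is linear, not normalized and not background-subtracted, and empty spots (4.21% to 7.01% of an array) were left out. The deposited log2 value table of the authors, for which the methods name quantile normalization, was an alternative, since its 4 columns do not share a distribution and the sources do not state its background treatment.

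Here the 8 spots of a miRNA were summarised by their median, quantile normalized, set to at least 1 and log2-transformed. Shikonin was compared with acetone over all 710 miRNAs in limma 3.58.1 (R 4.3.3), two-sided, with Benjamini-Hochberg adjustment and a threshold of 0.05, and the code was tested on simulated data. Uncorrected background understates fold changes of dim miRNAs. Named were the 5 members, the 3 nearest profiles of miR-126-3p and miR-451, and up to 3 of the brightest miRNAs of each list. Alternatives varied the normalization, background, spot summary, filter, prior, pairing, arrays and table rows. Replicate arrays correlated at r of 0.934 (shikonin) and 0.931 (acetone) across miRNAs, which are not independent. Sequences and gene neighbours came from RefSeq tables of GRCm38.p6, and the deposited tables name no build.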

Additional observations from a re-analysis of the deposited data

How the results depend on the processing

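The fold change of miR-126-3p was below 0 in all of 18 alternatives (-2.16 to -0.74), with limma adjusted p between 3.59e-05 and 0.981, and without single arrays between -1.51 and -0.77. Leaving out dim miRNAs after normalization, an intensity trend in the prior and a pairing of arrays cannot move a fold change, so there it stayed at -1.17. miR-126-3p passed with no normalization (-1.69) and with scaling over 164 bright miRNAs (-1.12, adjusted p = 0.0147), where the median of all miRNAs moved to 0.14 and 0.71. In these 2 settings all 3 tested members had the same SE (0.342 and 0.348), so a single pooled spread was used. miR-451 turned to 0.020 and 0.59 in the same settings, and lay between -0.30 and 0.064 without single arrays (0.064 without acetone replicate 1). miR-486 was above 0 in 17 of 17 (0.074 to 0.86). Alternatives for miR-126-5p and miR-144 alone were not run, as no fold change is given for them.

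The 2 calls (125 miRNAs at an unadjusted p under 0.05) became 83 with no normalization (30 higher, 53 lower), 123 with scaling over bright miRNAs (103 and 20), 38 with an intensity trend (24 and 14), and 1 each with the filter on dim miRNAs and with the row trend removed. Limma made 0 calls with cyclic loess, the mean of spots, the authors' value table and the first eighth of rows left out (23 to 126 at an unadjusted p under 0.05), and 0 without any single array (63 to 101). Same-numbered arrays shared only a number (correlation of their deviations -0.28). The replicate block made 0 calls (116 unadjusted) and gave miR-126-3p -1.17. The crossed pairing made 35 (19 higher, 16 lower). It was not planned and was added because the correlation of same-numbered arrays was negative. Such a choice, made on these values, by itself favours more calls.

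The endothelial mean difference moved to -0.75 with no normalization, -0.82 with the 75th percentile over all, -0.18 over bright miRNAs, -0.39 with cyclic loess, -0.77 in the authors' table, -0.35 without the repeat-rich families, and -0.72 to -0.37 without single arrays. That of red blood cells moved to 0.16 with no normalization, 0.73 over bright miRNAs and -0.46 in the authors' table, and lay between -0.097 and 0.12 without single arrays. The median of all miRNAs was 0.14 with no normalization, 0.072 with the 75th percentile over all and 0.71 over bright miRNAs. Taken minus that median, the endothelial value was -0.89 in each of these settings, which differ only by a shift common to all miRNAs. The median of the red blood cell miRNAs, taken likewise, was 0.038 in each. The cause of the other moves was not tested. Dim signal limits miR-451, miR-144, miR-486 and miR-126-5p. The medians of the context lists were recomputed under 6 other normalizations after the values had been seen. Those of vessel growth (0.18) and leukocytes (0.33) turned with scaling over bright miRNAs, where the median of all miRNAs was 0.71.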

Other observations

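In the deposited value table, whose background treatment and exact scale are unknown, miR-126-3p had log2 values of 10.43 and 9.93 on the shikonin arrays and 12.96 and 11.71 on the acetone arrays. Its limma adjusted p there was 0.981, and 0 miRNAs passed. miR-451 had 6.55 and 7.91 on the shikonin arrays and 8.86 and 7.35 on the acetone arrays, which overlapped. The values of miR-144 lay far apart on the shikonin arrays, at 3.07 and 6.48, and close together on the acetone arrays, at 5.75 and 5.33.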
